A study of Homo sapiens with 45 samples.

Results

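The comparison covers the messenger RNA response of MM134 cells to 17β-estradiol (E2), the main estrogen of the ovary. Its members were the 3 libraries named MM134_siNT_E2 set against the 3 named MM134_siNT, chosen by those names. So 6 of 45 libraries were compared, over all genes of the table. MM134 is short for MDA-MB-134VI, an established line of invasive lobular breast carcinoma, and the study also held the breast cancer lines MM330 (MDA-MB-330) and HCC1428. Each line had 5 groups of 3 libraries. In siNT the cells received the non-targeting siRNA and vehicle (0.01% ethanol), and in siNT_E2 the same siRNA and 100 pM E2. All groups shared 3 days without hormone and the siRNA transfection, hormone or vehicle followed 24 h after the siRNA, and RNA was collected 24 h later. In siER_E2, whose levels are also given, the siRNA was against the estrogen receptor and E2 was given. The groups siFOXA1_E2 and siMDC1_E2 received siRNA against FOXA1 or MDC1, and E2. All 15 MM134 libraries entered the fit, so the knockdown groups took part in its filter, scaling and spread. Differences between lines were fitted on all 45 libraries. The result is for 1 line in a hormone-deprived, transfected state. No label tells whether replicate libraries are independent cultures. The p-values therefore measure only how the libraries of each fit spread, which may be technical.

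The estrogen receptor α, encoded by ESR1, is a transcription factor that binds its hormone, moves onto DNA at estrogen response elements or by contact with other factors, and recruits coactivators or corepressors. FOXA1 and GATA3 open chromatin for it in luminal breast cells. In receptor-positive breast cancer the receptor drives growth, and drugs that lower estrogen or block the receptor are standard treatment.

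The 6 libraries held 24.8 to 36.7 M counts, and levels are given as CPM (a gene's counts relative to its library's total, scaled by the TMM method). Luminal markers were high in all 6: KRT8, KRT18, KRT19, EPCAM, GATA3, FOXA1 and ESR1 each stood at 322 CPM or more of the unscaled total. CDH1, the E-cadherin gene that lobular tumours typically lose, stood between 20.5 and 26.2 on that scale. The basal or myoepithelial markers KRT5 and ACTA2 and the immune marker CD68 had 0 counts in all 6. So did the endothelial markers PECAM1 and CDH5 and the fibroblast markers COL1A2, DCN and LUM. The basal factor TP63 had 50, 67 and 43 counts in siNT and 22, 19 and 27 in siNT_E2. The basal keratin KRT14 had 0 in each siNT library and 1, 2 and 0 in siNT_E2. The immune markers PTPRC, CD3E and CD14 had at most 4 counts in a library. COL1A1 was the exception among the fibroblast markers, at 127, 125 and 128 CPM in siNT and 101, 109 and 105 in siNT_E2. Of the 14 immune markers 2 were tested (ITGAM and CD8A) and of the 10 endothelial markers 0.

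A large part of the transcriptome differed with E2. Of 17744 genes with enough counts to test, 9648 (54.4%) passed an adjusted p under 0.05 in edgeR's quasi-likelihood test, 4825 higher with E2 (27.2%) and 4823 lower (27.2%). Most changes were small, and the median absolute log2 fold change over all genes tested was 0.31, with a median log2 fold change of -0.031. At 2-fold or more, 539 genes rose (3.04%) and 1054 fell (5.94%), at 4-fold 160 rose and 197 fell, and at 16-fold 37 rose and 12 fell. The CPM of the E2 and siNT libraries did not overlap for 10695 genes (60.3%). The split between directions depends on the scaling: on library totals without TMM factors, an alternative chosen after seeing the data that moves the median of all genes to -0.14, 3494 genes were called higher and 6491 lower. Mitochondrial transcripts made up 9.82% ± 0.19 of counts in siNT and 8.91% ± 0.27 in siNT_E2 (mean ± SD, n = 3). The part of that share in the other changes was not tested.

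**Figure D1:**
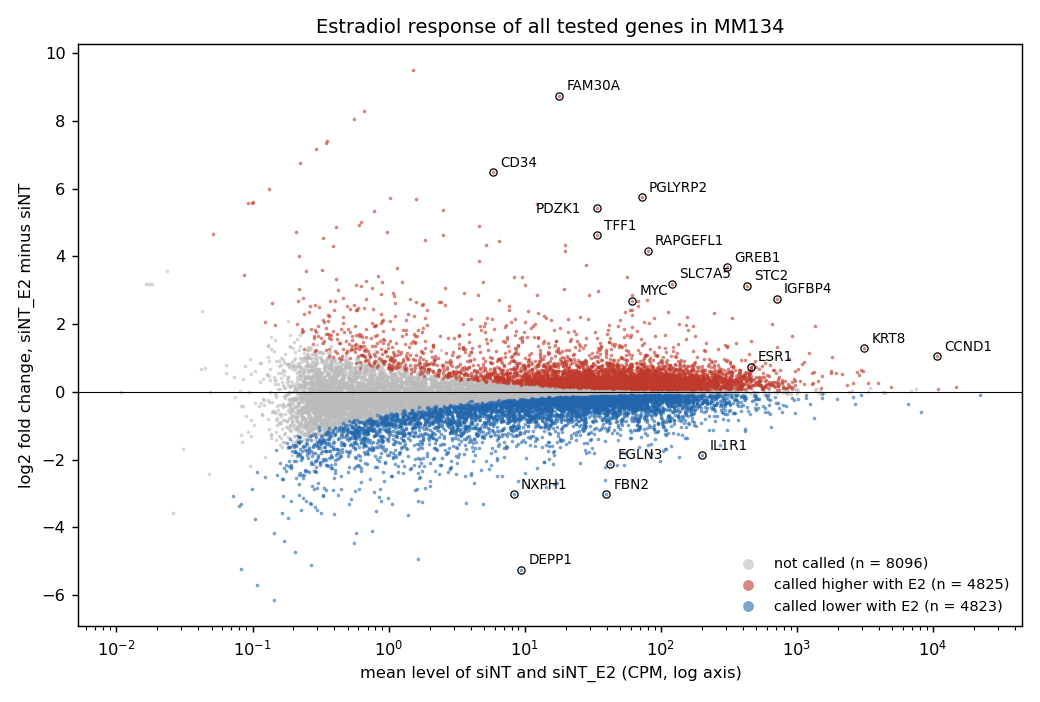
Each point is 1 of the 17744 genes tested, with the mean level of siNT and siNT_E2 in CPM on the x axis (log scale) and the log2 fold change with E2 on the y axis. Red points were called higher, blue lower and grey not called, and labelled genes include TFF1 and GREB1 high and DEPP1 and FBN2 low.

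The share of genes called in each direction changed with their level. Among genes with a mean under 1 CPM, 5.41% were called higher and 15.2% lower, among those at 1 to 10 CPM 12.7% and 31.9%, and among those at 100 to 1000 CPM 57.1% and 25.4%. Gene class moved with it: of 13179 protein-coding genes 4535 rose and 3893 fell, and of 3049 long non-coding genes 196 rose and 720 fell. Long non-coding genes at 10 CPM or more still leaned lower, with 51 called higher and 94 lower, where protein-coding genes at that level leaned higher, with 4002 and 2749. The share of a list called higher therefore stands beside 27.2% of all genes and 57.1% of genes at 100 to 1000 CPM.

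**Figure D2:**
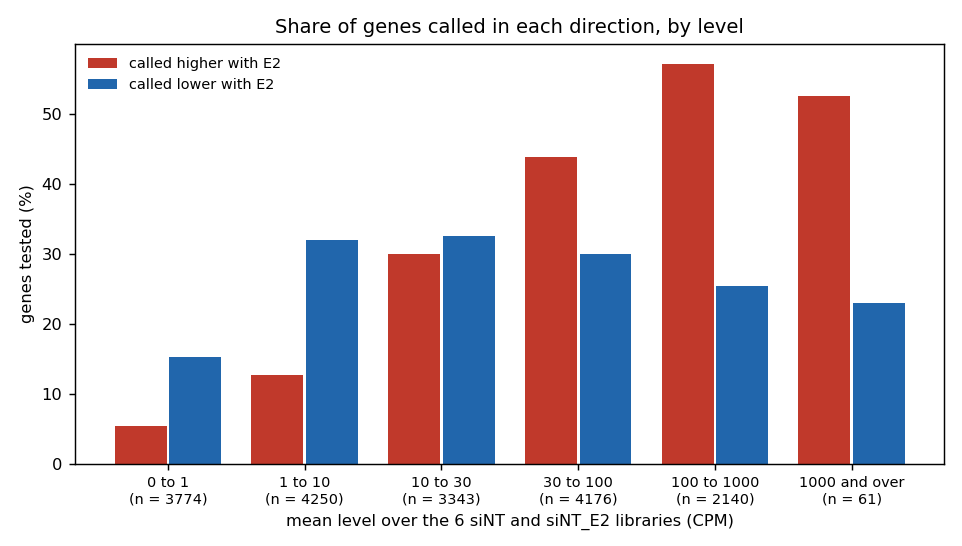
Bars give the percentage of tested genes called higher (red) or lower (blue) with E2 in each class of mean level over the 6 libraries (CPM, number of genes under each class). Genes under 10 CPM were called lower more often than higher, and genes at 30 CPM or more were called higher more often, 57.1% against 25.4% at 100 to 1000 CPM.

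The targeted genes of the study come first. ESR1 (chr6:151656691-152129619, + strand, GENCODE 29 on GRCh38) read 366, 341 and 324 CPM in siNT and 582, 570.0 and 568 CPM in siNT_E2. The groups did not overlap, and the rise was 1.67-fold (log2 fold change 0.74, SE 0.038, adjusted p = 3.63e-13). With receptor siRNA and E2 the 3 libraries read 68.9, 66.4 and 62.3 CPM, below both other groups. MDC1, a mediator of DNA damage signalling whose siRNA the study also used, did not pass the test (183, 189 and 186 against 187, 183 and 189 CPM, log2 fold change 0.0035, SE 0.045, adjusted p = 0.956). FOXA1, which opens chromatin for the receptor, was lower, at 528, 528 and 543 against 484, 463 and 464 CPM (log2 fold change -0.18, SE 0.027, adjusted p = 5.72e-06). Its exons share 16 bases with TTC6 on the opposite strand (62.8 CPM). How strand was counted is not given in the sources used here, so reads of genes that share exon bases may not be told apart. Such overlaps are stated for some genes only, and other genes named in the text have them too.

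Known targets of the receptor rose together. Of 37 classical E2-induced genes tested, 37 were called higher and 0 lower, with a median log2 fold change of 1.69 and a range of 0.65 (RBBP8, a DNA end resection factor) to 5.43 (PDZK1). These targets are known from other breast cancer lines, and they were listed with earlier results of these data in view. The per-library levels of the leading ones follow.

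TFF1, the secreted trefoil factor, read 2.76, 2.504 and 2.64 CPM in siNT and 62.7, 67.2 and 65.4 in siNT_E2. That is a 24.8-fold rise (log2 fold change 4.63, SE 0.087, adjusted p = 1.28e-20). GREB1, a chromatin-bound partner of the receptor, read 45.2, 45.5 and 43.1 CPM and then 566, 576 and 568, a 12.8-fold rise (log2 fold change 3.67, SE 0.039, adjusted p = 1.18e-24). PDZK1, a scaffold for membrane transporters, went from 1.399, 1.604 and 1.55 to 62.7, 70.4 and 65.2 CPM, 43.2-fold (log2 fold change 5.43, SE 0.12, adjusted p = 1.18e-19). In all 3 genes every E2 library was above every siNT library, with replicate spread far smaller than the gap.

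IGFBP4, a binding protein that limits insulin-like growth factors, read 192, 183 and 176 CPM in siNT and 1212, 1257 and 1233 in siNT_E2 (log2 fold change 2.75, SE 0.046, adjusted p = 1.85e-21). RAPGEFL1, a gene named for its likeness to guanine nucleotide exchange factors, read 8.58, 8.72 and 8.03 and 153, 153 and 150.4 CPM (log2 fold change 4.16, SE 0.056, adjusted p = 5.42e-23). STC2, a secreted glycoprotein, read 109.7, 77.5 and 75.5 and 769.7, 766 and 761 CPM (log2 fold change 3.13, SE 0.089, adjusted p = 9.89e-18). Its siNT replicate 1 stood above the other 2 siNT libraries, still far under the E2 libraries. That library also stood apart over all genes tested. In a principal component analysis of the 6 libraries the second axis held 9.13% of the variance. On it siNT replicate 1 stood at 31.53, and replicates 2 and 3 at -14.65 and -15.25. With siNT replicate 1 left out 9228 genes were called. CXCL12, a chemokine, read 14.9, 16.7 and 19.4 and 67.1, 65.5 and 66.99 CPM (log2 fold change 1.97, SE 0.069, adjusted p = 4.3e-16), and EGR3, an immediate-early zinc finger factor, 10.2, 9.82 and 8.997 and 104, 105 and 97.9 CPM (log2 fold change 3.40, SE 0.057, adjusted p = 1.85e-21). EGR3 shares 164 exon bases with AC055854.1 on the opposite strand, at 4.62 CPM. Elsewhere in the list the lysosomal protease CTSD rose (1.34 on the log2 scale), as did the estrogen-growth inhibitor RERG (2.86), the keratin KRT13 (3.04), the ubiquitin ligase SIAH2 (1.69) and the retinoic acid receptor RARA (1.65). The progesterone receptor gene PGR, a common clinical marker of estrogen action, stayed below the count minimum: it had 0 counts in each siNT library and 12, 6 and 6 counts in the siNT_E2 libraries, so no fold is given.

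**Figure D3:**
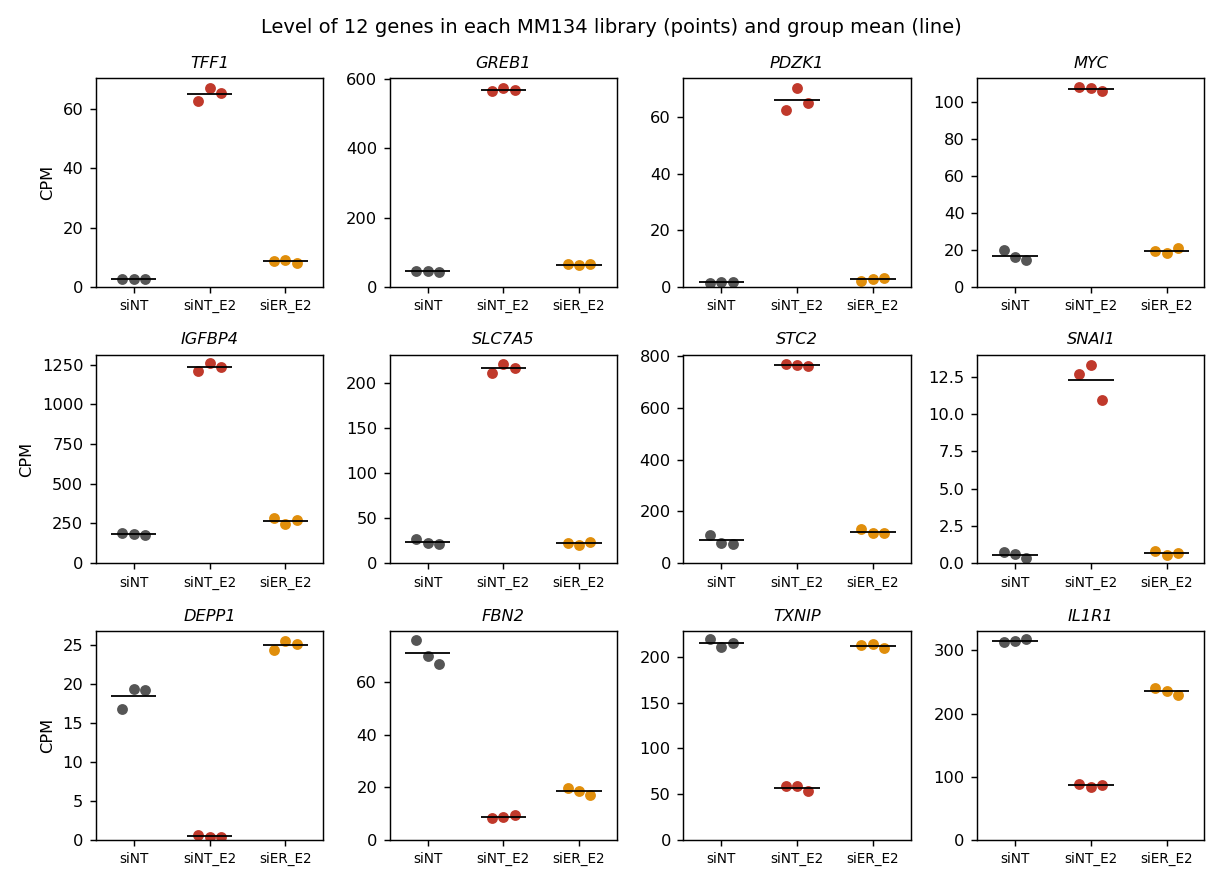
Points are single MM134 libraries and lines group means, in CPM, for 12 genes in siNT (grey), siNT_E2 (red) and siER_E2 (orange, receptor siRNA with E2). In the first 8 panels the siNT_E2 points stand apart above siNT, TFF1 at 62.7 to 67.2 against 2.504 to 2.76 CPM, and in the last 4 they stand below it, DEPP1 at 0.351 to 0.651 against 16.8 to 19.4 CPM.

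Levels with receptor siRNA and E2 are given side by side. TFF1 stood at 8.78, 9.15 and 7.96 CPM in siER_E2, GREB1 at 66.2, 61.6 and 64.3 and IGFBP4 at 282, 249 and 272. In these the siER_E2 libraries lay between the siNT and siNT_E2 libraries.

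Among genes that no list held, the response reached further. CD34, a sialomucin of blood progenitor and endothelial cells, rose from 5, 3 and 3 counts in siNT to 431, 300 and 299 in siNT_E2 (0.128 ± 0.0509 to 11.6 ± 0.902 CPM, mean ± SD, n = 3). In the same libraries the endothelial markers PECAM1 and CDH5 were at 0, VWF had 3, 1 and 6 counts in siNT and 9, 2 and 9 in siNT_E2, and 0 of the 10 endothelial markers passed the count minimum. PGLYRP2, an enzyme that cleaves bacterial peptidoglycan, read 2.69, 2.22 and 3.14 CPM in siNT and 143, 141 and 144 in siNT_E2 (log2 fold change 5.75, SE 0.076, adjusted p = 5.42e-23). ASIC2, a proton-gated sodium channel, read 0.552, 0.563 and 0.427 and 25.6, 23.6 and 23.7 CPM (log2 fold change 5.54, SE 0.15, adjusted p = 3.86e-18). AMZ1, a metallopeptidase, read 2.98, 1.32 and 2.09 and 37.9, 39.3 and 34.98 CPM, and FCRLB, an Fc receptor-like protein, 2.098, 1.800 and 1.71 and 37.2, 39.3 and 36.9 CPM. For each of these the 3 siNT libraries stood far under the 3 E2 libraries. SDK2, a cell adhesion molecule known from the retina, had 0 counts in all siNT libraries and 122, 82 and 67 in siNT_E2. Against a floor of 3 counts over the siNT group it was at least 90.1-fold higher.

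Repression reached genes of other kinds. Of 19 classical E2-repressed genes tested, 16 were called lower and 1 higher, with a median of -1.25. The exception was PDCD4, a translation inhibitor, at 105, 91.1 and 97.1 CPM in siNT and 148, 150.4 and 151 in siNT_E2 (log2 fold change 0.62, SE 0.040, adjusted p = 1.71e-11). It shares 1277 exon bases with BBIP1 on the opposite strand (15.4 CPM). IL1R1, the interleukin-1 receptor, read 313, 316 and 319 and 87.9, 83.4 and 87.3 CPM (log2 fold change -1.87, SE 0.032, adjusted p = 1.9e-21). BCAS1, a gene amplified in some breast tumours, read 72.5, 82.8 and 80.1 and 17.6, 17.8 and 16.8 CPM (log2 fold change -2.17, SE 0.059, adjusted p = 4.99e-18). Among the others, YPEL3, a growth suppressor, fell by 1.35 on the log2 scale (it shares 300 exon bases with AC012645.1 on the opposite strand) and the xenobiotic-metabolising CYP1A1 by 2.86.

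The largest falls among well-counted protein-coding genes came from several kinds of gene. DEPP1, a gene induced by FOXO factors in fasted cells, read 16.8, 19.4 and 19.2 CPM in siNT and 0.651, 0.351 and 0.401 in siNT_E2 (log2 fold change -5.24, SE 0.15, adjusted p = 1.07e-17), and it shares 695 exon bases with RASSF4 on the other strand (2.39 CPM). FBN2, a fibrillin of elastic fibres, read 75.96, 69.9 and 66.9 and 8.29, 8.64 and 9.295 CPM (log2 fold change -3.03, SE 0.070, adjusted p = 3.3e-19). NXPH1, a secreted ligand of neurexins, read 14.9, 14.2 and 15.1 and 1.67, 1.86 and 1.92 CPM (log2 fold change -3.03, SE 0.12, adjusted p = 2.73e-15). The groups were far apart in each. SEMA6D, a semaphorin, fell from 25.1 ± 1.57 to 3.59 ± 0.8797 CPM, ATXN1, the ataxin-1 repressor, from 28.4 ± 1.37 to 4.36 ± 0.797, and SERPINI1, a neuronal serine protease inhibitor, from 67.3 ± 2.55 to 11.2 ± 0.638 CPM. EGLN3, an oxygen-sensing prolyl hydroxylase, fell from 69.5 ± 2.78 to 15.9 ± 0.532 CPM, VTCN1, the immune checkpoint ligand B7-H4, from 10.7 ± 0.797 to 1.901 ± 0.128, and WNK4, a kinase of ion transport, from 88.6 ± 0.472 to 19.6 ± 1.41 CPM (mean ± SD, n = 3 each). WNK4 shares 816 exon bases with COA3 on the opposite strand (36.8 CPM).

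The genes linked to FOXO factors, transcription factors that insulin signalling keeps out of the nucleus, fell as a group. Of 24 tested 21 were called lower and 2 higher, with a median of -0.75. TXNIP, a regulator of glucose uptake and redox state, read 219.9, 211 and 216 CPM in siNT and 58.9, 58.3 and 53.8 in siNT_E2 (log2 fold change -1.92, SE 0.035, adjusted p = 8.21e-21). CCNG2, a cyclin of arrested cells, read 136, 126 and 134 and 36.3, 40.1 and 36.1 CPM (log2 fold change -1.82, SE 0.043, adjusted p = 4.27e-19). FBXO32, a muscle-wasting ubiquitin ligase, fell from 23.96 ± 1.43 to 6.11 ± 0.329 CPM, and the p53- and stress-induced TP53INP1 fell by 3.32 on the log2 scale. The factors themselves were lower too: FOXO1 changed by -1.65, FOXO4 by -0.81 and FOXO3 by -0.35. The 2 that went against the rest were IRS2, an insulin receptor substrate (13.8, 12.6 and 11.9 against 28.8, 29.6 and 31.3 CPM, log2 fold change 1.23, SE 0.074, adjusted p = 4.04e-12), and SOD2, the mitochondrial superoxide dismutase (0.25).

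In the insulin-like growth factor axis, 8 of 16 members were called higher and 4 lower (median 0.30). The docking protein IRS1 read 79.1, 72.4 and 71.6 CPM in siNT and 178, 172 and 164 in siNT_E2 (log2 fold change 1.21, SE 0.037, adjusted p = 4.5e-17), and the receptor IGF1R 242, 234 and 253 and 419.6, 404 and 403 (log2 fold change 0.75, SE 0.043, adjusted p = 2.09e-12). The binding proteins split, IGFBP5 at 22.6, 19.1 and 19.5 against 53.7, 51.1 and 51.8 CPM (1.36 on the log2 scale) and IGFBP3 at 36.8, 44.2 and 42.4 against 18.03, 16.5 and 17.5 (-1.25). GRB10, an adaptor that limits insulin signalling, changed by -0.66.

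Receptor tyrosine kinases and their ligands moved in both directions. Of 28 tested, 7 were called higher and 11 lower, with a median of -0.21. The GDNF receptor RET, read at 83.7, 80.01 and 82.4 CPM in siNT and 402, 417 and 412 in siNT_E2, rose 5.004-fold (log2 fold change 2.32, SE 0.036, adjusted p = 4.63e-22). Its co-receptor GFRA1 read 1.32, 1.41 and 1.63 and 15.3, 16.2 and 14.4 CPM (log2 fold change 3.39, SE 0.13, adjusted p = 2.95e-15), and the EGFR ligand AREG 24.8, 18.6 and 20.4 and 136, 138 and 138 CPM (log2 fold change 2.70, SE 0.071, adjusted p = 2.54e-18). Members of the ERBB family went the other way, ERBB3 at 548, 572 and 572 against 258, 269 and 270.2 CPM (log2 fold change -1.09, SE 0.031, adjusted p = 8.87e-18) and ERBB2 at 209, 198 and 214 against 101, 100.2 and 104 CPM (log2 fold change -1.03, SE 0.037, adjusted p = 7.45e-16), and ERBB4 changed by -1.37. Feedback inhibitors of growth factor signalling were lower for SPRY1 (-3.53) and DUSP6 (-1.02), and SPRY4 was higher (0.47). ERBB2 shares exon bases on the opposite strand with MIEN1 (571 bases, 61.9 CPM) and PGAP3 (194 bases, 28.7 CPM).

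The receptor's helpers moved in both directions. Among 18 coregulators and partner factors 8 were called higher and 7 lower, with a median of 0.044 that turned to -0.065 on library totals without TMM factors. TFAP2C, a luminal transcription factor, read 64.1, 61.2 and 60.9 CPM in siNT and 245, 240.4 and 250.2 in siNT_E2 (log2 fold change 1.98, SE 0.042, adjusted p = 6.64e-20). The corepressor NRIP1 rose from 123 ± 2.48 to 292 ± 7.92 CPM (mean ± SD, n = 3). The 3 p160 coactivators were lower, NCOA3 from 182 ± 2.47 to 108 ± 6.67 CPM, NCOA2 from 146 ± 2.78 to 88.05 ± 1.55 and NCOA1 from 31.2 ± 1.43 to 24.3 ± 1.35. The nuclear receptors as a family were mostly lower, 15 of 27, with 5 higher and a median of -0.25. RORA, a circadian and metabolic receptor, read 14.1, 14.7 and 13.7 and 5.01, 5.48 and 5.25 CPM (log2 fold change -1.43, SE 0.092, adjusted p = 1.32e-11), and NR3C1, the glucocorticoid receptor, 40.7, 39.4 and 40.6 and 22.5, 21.4 and 22.5 (log2 fold change -0.86, SE 0.058, adjusted p = 3.32e-11). RARA went against them, at 94.2, 83.4 and 82.9 and 280.5, 265 and 272 CPM (log2 fold change 1.65, SE 0.042, adjusted p = 1.71e-18).

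Genes of DNA replication rose together. Of 43 DNA replication genes 42 were called higher and 0 lower (median 0.45), and the one not called was POLA2 (0.27). The rises were modest, and MCM10 had the largest: it read 80.9, 75.3 and 73.6 CPM in siNT and 144, 136 and 139 in siNT_E2 (log2 fold change 0.87, SE 0.036, adjusted p = 6.92e-15). MCM7, a subunit of the replicative helicase, read 421, 405 and 398 and 693, 706 and 689 CPM (log2 fold change 0.77, SE 0.027, adjusted p = 3.66e-16), and CDC6, a loader of that helicase, 103, 99.3 and 96.9 and 174, 179 and 176 CPM (log2 fold change 0.82, SE 0.035, adjusted p = 1.4e-14). Mitotic genes showed no larger share called higher than all genes at 100 to 1000 CPM (57.1%, median 0.13). Of 40 tested 19 were called higher and 5 lower, with a median of 0.10 that turned to -0.014 on library totals without TMM factors, where 9 were higher and 8 lower. FOXM1, the mitotic transcription factor, rose from 242 ± 6.53 to 319.6 ± 5.68 CPM and AURKB, a mitotic kinase, from 41.2 ± 2.16 to 61.8 ± 2.48, while the kinesin KIF20A fell from 149 ± 7.12 to 112 ± 2.42 CPM. DNA damage genes were called higher in 27 of 36 and lower in 2 (median 0.35), with PARP1, a break sensor, going from 383 ± 8.503 to 535 ± 4.51 CPM.

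Regulators of entry into the cycle moved in both directions. MYC, the growth-promoting transcription factor on chromosome 8, read 19.7, 15.8 and 14.4 CPM in siNT and 108, 107 and 106 in siNT_E2 (log2 fold change 2.69, SE 0.064, adjusted p = 5.38e-19). CCND1, the cyclin D1 gene, read 7244, 6848 and 6849.7 and 14686, 14367 and 14224 CPM, so that every E2 library held at least 1.38% of all its counts in this 1 gene, against at most 0.747% in the siNT libraries (log2 fold change 1.05, SE 0.025, adjusted p = 4.66e-19). CCND1 shares 497 exon bases with LTO1 on the opposite strand (283 CPM). MYB and MYBL1, transcription factors of proliferating cells, changed by 1.5 and 1.18. On the other side CDKN2B, an inhibitor of CDK4 and CDK6, read 44.6, 38.99 and 43.7 and 12.9, 13.03 and 12.4 CPM (log2 fold change -1.73, SE 0.057, adjusted p = 1.35e-16), CDKN1A, the p21 inhibitor, 119, 117 and 121 and 59.00, 59.5 and 61.98 CPM (log2 fold change -0.98, SE 0.033, adjusted p = 1.55e-16), and CDK6 59.7, 59.98 and 64.3 and 26.4, 26.9 and 26.4 CPM (log2 fold change -1.21, SE 0.042, adjusted p = 3.93e-16). Of 36 regulators of this step 20 were called higher and 11 lower, with a median of 0.23.

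Cell death and p53 genes were mixed. Of 17 members of the BCL2 family 7 were called higher and 6 lower (6 and 8 on library totals without TMM factors), and of 23 p53 targets 7 were higher and 12 lower. PMAIP1, the BH3-only protein NOXA, read 3.09, 2.701 and 3.34 CPM in siNT and 12.1, 9.91 and 11.98 in siNT_E2 (log2 fold change 1.90, SE 0.13, adjusted p = 6.14e-11), and BID, a BH3-only protein that links death receptors to mitochondria, 8.91, 7.51 and 7.52 and 22.2, 22.2 and 20.6 (log2 fold change 1.45, SE 0.080, adjusted p = 1.05e-12). BCL2 itself, the survival factor, rose from 32.8 ± 1.78 to 47.7 ± 1.51 CPM and BMF, which opposes it, fell from 126 ± 3.31 to 55.3 ± 1.58. BTG2, an antiproliferative p53 target, was lower, at 80.5, 79.1 and 79.4 against 23.1, 23.3 and 23.3 CPM (log2 fold change -1.78, SE 0.051, adjusted p = 1.05e-17).

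Growth machinery rose broadly. Ribosome biogenesis genes were called higher in 42 of 43 with a median of 0.66, and POLR1D, a subunit of RNA polymerases I and III, was the 1 called lower (57.1, 55.8 and 56.97 against 47.2, 43.4 and 45.2 CPM). BOP1, a factor of large subunit assembly, read 64.99, 59.8 and 59.5 CPM in siNT and 152, 153 and 151 in siNT_E2 (log2 fold change 1.31, SE 0.036, adjusted p = 5.8e-18), and NCL, nucleolin, 812, 751 and 774 and 1379, 1404 and 1374 (log2 fold change 0.83, SE 0.030, adjusted p = 8.55e-16). Cytosolic ribosomal protein genes were called higher in 28 of 40 and lower in 0 (median 0.19), though on library totals without TMM factors 8 were called lower. Translation factors were higher in 23 and lower in 6 of 32, the enzymes that charge transfer RNAs (tRNA synthetases) in 17 and 2 of 20, and nucleotide and one-carbon synthesis in 22 and 0 of 26. EIF5A, a translation factor with the modified residue hypusine, went from 126 ± 2.63 to 233 ± 3.55 CPM, CTPS1, the CTP synthase, from 33.1 ± 1.301 to 78.1 ± 3.599, and NME1, a nucleoside diphosphate kinase, from 13.7 ± 0.535 to 36.6 ± 2.03.

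Genes of nutrient uptake changed as well. SLC7A5, the large neutral amino acid transporter, read 26.8, 22.8 and 21.9 CPM in siNT and 212, 222 and 217 in siNT_E2 (log2 fold change 3.19, SE 0.056, adjusted p = 3.77e-21). SLC2A1, the glucose transporter GLUT1, read 303, 252 and 238 and 1074, 1061 and 1044 CPM (log2 fold change 2.00, SE 0.059, adjusted p = 2.23e-17). In both genes every E2 library was above every siNT library. SLC1A5, a glutamine carrier, rose from 284 ± 4.71 to 544 ± 9.11 CPM, and SLC38A1, also a glutamine carrier, fell from 703 ± 12.9 to 464 ± 14.02. Of 18 amino acid transporters 12 were called higher and 2 lower. Glycolysis and hypoxia genes were higher in 19 and lower in 7 of 33. Those shares, 57.6% and 21.2%, were near the 57.1% and 25.4% of all genes at 100 to 1000 CPM.

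Protein folding and breakdown genes rose too. Heat shock and chaperonin genes were called higher in 32 of 33, lower in 0 (median 0.57), and proteasome genes in 30 of 34, lower in 0 (median 0.33). HSPB8, a small heat shock protein, read 54.9, 55.3 and 52.9 CPM in siNT and 214, 221 and 217 in siNT_E2 (log2 fold change 2.00, SE 0.037, adjusted p = 1.28e-20), and FKBP4, a co-chaperone of steroid receptors, 475, 434 and 422 and 1395, 1408 and 1395 (log2 fold change 1.66, SE 0.035, adjusted p = 6.23e-20). The endoplasmic reticulum chaperone HSPA5 read 291, 269.9 and 270.0 and 583, 622 and 612 CPM (log2 fold change 1.13, SE 0.040, adjusted p = 4.14e-16) and XBP1, a factor of the unfolded protein response, 796, 793 and 782 and 1442, 1475 and 1459 CPM (log2 fold change 0.88, SE 0.031, adjusted p = 3.51e-16). Within the unfolded protein and ATF4 list 19 of 28 were higher and 4 lower. Mitochondrial ribosome genes were higher in 26 of 28 (lower in 0), nuclear respiratory chain genes in 21 of 34 (lower in 1), and mitochondrially encoded genes in 8 of 13 with 2 lower. For nuclear respiratory chain genes the share higher, 61.8%, was near the 57.1% of all genes at 100 to 1000 CPM, and 2.94% were lower against 25.4%. For mitochondrially encoded genes 61.5% were higher, beside 52.5% of all genes at 1000 CPM or more. On library totals without TMM factors 3 mitochondrially encoded genes were called higher.

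Reference genes are given for scale. Of 16 reference genes 8 were called higher and 1 lower, with a median of 0.21 (0.099 on library totals without TMM factors, with 8 higher and 4 lower). GAPDH, a glycolytic enzyme often used as a reference, read 1777, 1778 and 1700.5 CPM in siNT and 2524, 2523 and 2468 in siNT_E2 (log2 fold change 0.52, SE 0.030, adjusted p = 2.57e-12).

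**Figure D4:**
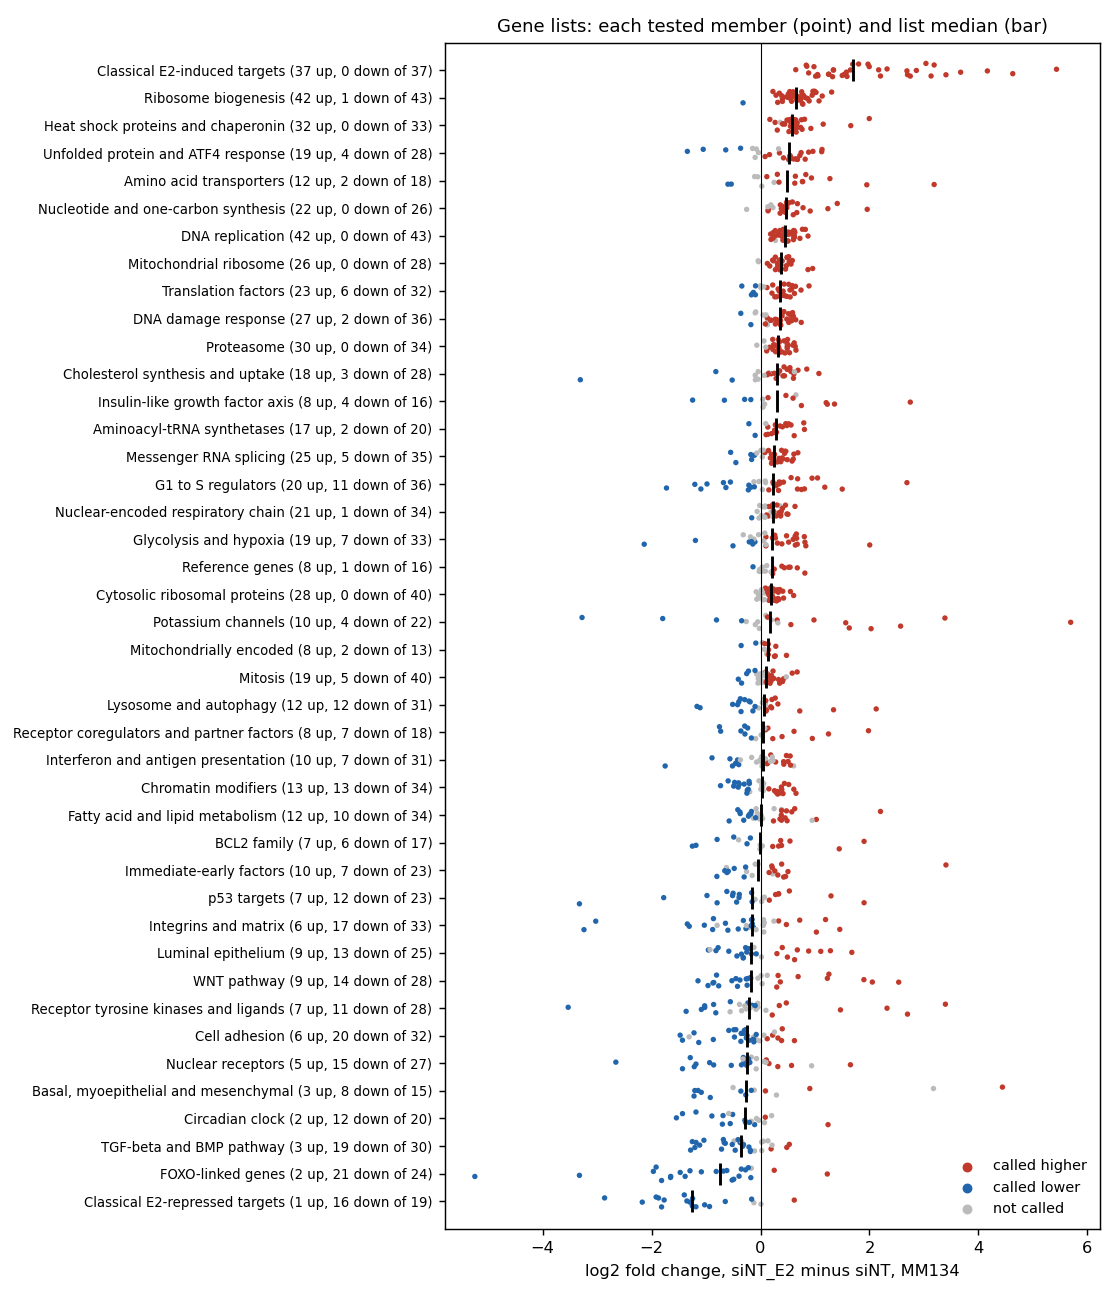
Each row is a gene list with 5 or more genes tested, each point a member placed by its log2 fold change with E2 in MM134 (x axis), coloured red when called higher, blue when called lower and grey when not called, and the black bar the list median. Classical E2-induced genes have a median of 1.69 and FOXO-linked genes of -0.75, against -0.031 over all genes tested.

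Lipid metabolism was selective. The cholesterol exporters ABCA1 and ABCG1 fell, ABCA1 from 9.02 ± 0.584 to 0.892 ± 0.342 CPM and ABCG1 from 97.7 ± 1.43 to 55.2 ± 1.92 (n = 3), while the synthesis enzymes FDFT1 (0.85) and HMGCS1 (0.60) and their regulator SREBF2 (0.61) rose on the log2 scale. In that list 18 of 28 were called higher (64.3%) and 3 lower. Of all genes 43.8% were called higher at 30 to 100 CPM and 57.1% at 100 to 1000 CPM. On library totals without TMM factors 15 of the list were higher and 7 lower. ELOVL2, an elongase of polyunsaturated fatty acids, read 58.4, 55.4 and 52.7 CPM in siNT and 261, 255 and 249.8 in siNT_E2 (log2 fold change 2.20, SE 0.042, adjusted p = 1.55e-20). Fatty acid genes were called higher in 12 and lower in 10 of 34, with a median of 0.0091 that turned to -0.10 on library totals without TMM factors, where 16 were lower.

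Luminal identity genes moved in both directions. Of 25 tested 9 were called higher and 13 lower (median -0.17). The luminal keratins were higher, KRT8 at 1875, 1819 and 1763 CPM in siNT against 4409.6, 4464 and 4409 in siNT_E2 (log2 fold change 1.28, SE 0.028, adjusted p = 1.3e-19), KRT19 from 2427 ± 100.2 to 3744 ± 23.6 CPM and KRT18 from 780.4 ± 20.9 to 1247 ± 18.3. KRT8 and KRT18 share 525 exon bases with each other on opposite strands. The trefoil factor TFF3 read 28.4, 27.3 and 25.4 and 78.7, 90.7 and 90.3 CPM (log2 fold change 1.68, SE 0.064, adjusted p = 1.99e-15), and the prolactin receptor PRLR rose from 333 ± 5.11 to 468 ± 10.9. GATA3, the luminal regulator, fell from 1235 ± 12.7 to 1099.6 ± 29.3 CPM, and CD24, a surface sialoglycoprotein, from 1697 ± 37.6 to 989 ± 30.8.

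Basal and mesenchymal genes, adhesion and matrix leaned lower. Of 15 basal, myoepithelial and mesenchymal genes 8 were called lower and 3 higher. SNAI1, the Snail repressor of E-cadherin, was among the higher ones: it read 0.736, 0.591 and 0.349 CPM in siNT and 12.7, 13.3 and 10.9 in siNT_E2 (log2 fold change 4.44, SE 0.23, adjusted p = 2.42e-13), from counts of 20, 21 and 9 to 448, 379 and 273. TWIST1, a mesenchymal factor (20.2 ± 0.292 to 9.46 ± 0.862 CPM), SPARC, a matrix glycoprotein (13.9 ± 0.7901 to 6.28 ± 0.398), and the cadherin CDH2 (66.2 ± 1.26 to 28.4 ± 1.29) fell, and the call for the intermediate filament VIM (0.091) was lost on library totals without TMM factors (-0.018). CDH1 changed by -0.13 and was not called. Cell adhesion genes were lower in 20 of 32 and higher in 6, among the lower CTNND1, p120 catenin (677 ± 6.82 to 486 ± 6.42 CPM). Integrin and matrix genes were lower in 17 of 33 and higher in 6. LAMB1, a laminin chain, fell from 219 ± 3.57 to 120.5 ± 2.13 CPM, and the integrin ITGB5 rose from 129 ± 9.53 to 294 ± 3.01.

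Signalling pathways of development leaned lower with exceptions. In the TGF-beta and BMP list 19 of 30 were called lower and 3 higher (median -0.36). The ID genes, inhibitors of helix-loop-helix factors, fell together: ID3 read 153, 159.9 and 148 CPM in siNT and 64.1, 62.5 and 62.8 in siNT_E2 (log2 fold change -1.28, SE 0.046, adjusted p = 5.05e-16), ID1 89.2, 95.3 and 86.9 and 39.98, 41.4 and 44.2, and ID2 117, 121 and 114 and 56.6, 59.6 and 55.4. SMAD3, the signal transducer, fell from 157 ± 2.83 to 68.1 ± 1.28 CPM and TGFB3, a ligand, from 152 ± 2.58 to 63.9 ± 1.103. LTBP1, which holds latent ligand in the matrix, went against them (100.4 ± 3.29 to 145 ± 2.21 CPM). Of 28 WNT genes 9 were higher and 14 lower. The ligand WNT4 read 8.72, 7.48 and 6.71 and 26.8, 31.1 and 27.6 CPM (log2 fold change 1.90, SE 0.095, adjusted p = 1.84e-13), the receptor FZD7 4.12, 4.05 and 3.45 and 17.4, 16.6 and 14.3 (log2 fold change 2.05, SE 0.11, adjusted p = 4.45e-13), and LEF1, a nuclear effector, 2.13, 1.997 and 2.29 and 4.78, 5.37 and 5.17, while TCF7L2, also a nuclear effector, fell from 54.9 ± 3.57 to 32.3 ± 1.02 CPM.

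Potassium channels rose in 10 of 22 and fell in 4. KCNH1, the voltage-gated channel EAG1, read 2.06, 1.43 and 1.51 CPM in siNT and 17.9, 16.5 and 17.7 in siNT_E2 (log2 fold change 3.39, SE 0.13, adjusted p = 1.04e-15), and KCNK6, a background channel, 27.97, 26.1 and 24.4 and 79.6, 80.01 and 83.5 (log2 fold change 1.63, SE 0.055, adjusted p = 2.46e-16). KCNQ5, a voltage-gated channel of the M-current family, went from 4, 1 and 0 counts to 116, 93 and 72. The opposite direction was seen in KCNMA1, the calcium-activated BK channel, at 84.1, 87.9 and 83.9 against 25.6, 22.8 and 25.3 CPM (log2 fold change -1.80, SE 0.047, adjusted p = 2.54e-18), and KCNJ13, an inward rectifier, at 6.59, 7.005 and 6.59 against 0.566, 0.773 and 0.761 CPM (log2 fold change -3.28, SE 0.20, adjusted p = 7.02e-12). KCNJ13 shares 722 exon bases with GIGYF2 on the opposite strand, which stood far higher (160 CPM).

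Immediate-early, interferon and chromatin genes were mixed, and clock genes were mostly lower. JUN, a subunit of AP-1, fell from 101 ± 1.18 to 64.2 ± 3.59 CPM, and KLF6, a zinc finger factor, rose from 116 ± 3.15 to 156 ± 0.685. Of 23 immediate-early genes 10 were higher and 7 lower, or 8 higher and 12 lower on library totals without TMM factors. Clock genes were lower in 12 of 20 and higher in 2. Among them HLF, a clock output factor, fell from 30.02 ± 1.14 to 10.4 ± 1.67 CPM and BHLHE40, a clock repressor, rose from 40.2 ± 0.793 to 94.99 ± 1.09. Interferon and antigen presentation genes were higher in 10 and lower in 7 of 31 (median 0.038), and on library totals without TMM factors higher in 5 and lower in 10 (median -0.072). Chromatin modifiers split evenly, 13 and 13 of 34 (median 0.029, -0.081 on library totals without TMM factors), with the demethylases KDM4B higher (120.4 ± 3.06 to 189 ± 2.16 CPM) and KDM5B lower (179 ± 4.01 to 127 ± 4.42). Lysosome genes split evenly as well, 12 and 12 of 31 (median 0.068, or -0.042 with 4 higher on library totals without TMM factors), and GLA, the α-galactosidase, read 18.9, 17.98 and 18.9 and 81.1, 82.4 and 79.3 CPM (log2 fold change 2.12, SE 0.056, adjusted p = 2.79e-18). Splicing genes were higher in 25 and lower in 5 of 35, with the splicing kinase CLK1 among the lower (58.8 ± 3.46 to 40.2 ± 1.699 CPM).

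Among long non-coding genes at 5 CPM or more FAM30A had the largest rise. It had 3, 2 and 2 counts in siNT and 1310, 1042 and 832 in siNT_E2 (0.0814 ± 0.0273 to 35.7 ± 2.03 CPM, log2 fold change 8.74, SE 0.21, adjusted p = 4.98e-19). LINC01016 read 5.74, 2.98 and 3.18 and 53.2, 54.3 and 49.5 CPM (log2 fold change 3.74, SE 0.18, adjusted p = 9.38e-14). On the lower side ZNF350-AS1 read 22.7, 21.2 and 23.00 and 6.14, 4.39 and 5.25 CPM (log2 fold change -2.07, SE 0.10, adjusted p = 1.45e-13) and ERVE-1 6.37, 6.58 and 7.48 and 1.02, 1.37 and 1.402 CPM (log2 fold change -2.44, SE 0.14, adjusted p = 3.09e-12).

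Promoters of the responding genes were searched for the receptor's own element in 11037 of the 17744 tested genes that the RefSeq table (GRCh38.p14) held, over the 250 bases before the start. The full estrogen response element, an inverted repeat of GGTCA and TGACC with any 3 bases between, which reads the same on both strands, was in 2 promoters (0.0181% of all), LINC02130 and ZNF669. With at most 1 changed base it was in 47 promoters (0.426%), in 4 of 319 genes at least 2-fold higher (1.25%) and in 2 of 567 at least 2-fold lower (0.353%). Of those 47 genes 21 were called higher, 11 lower and 15 not called. Among the 11037 searched genes 4046 were not called, and 0.371% of these had such an element, near the 0.426% of all. The 27.2% called in each direction is of all 17744 genes tested, a wider set than the searched genes, so it is no measure for the 47. The 4 at least 2-fold higher include CXCR1 and LINC02130, with at most 0 and 8 counts in a siNT library. ZNF669, which has the full element, changed by only 0.22 on the log2 scale (adjusted p = 0.0469 in edgeR). The AP-1 motif TGANTCA, searched on both strands, was in 3.87% of all promoters, in 5.64% of those of genes at least 2-fold higher and in 7.41% at least 2-fold lower. The E-box CACGTG was in 8.98%, 9.4% and 6.88%, and the forkhead motif TGTTTAC, also on both strands, in 1.88%, 2.51% and 3.17%. The receptor is known to bind mostly far from promoters, and a match is a run of letters, not a bound site. Shown are 3 of the higher genes, with the element in capitals and the strand of the gene given: LINC02130 (chr16:14370355-14370447, minus strand), which went from 0.147 to 1.53 CPM (log2 fold change 3.43), TMEM26 (chr10:61453574-61453631, minus strand), from 2.07 to 7.92 CPM (1.93), and ADAMTSL5 (chr19:1513188-1513269, minus strand), from 7.01 to 17.9 CPM (1.35). The first has the full element and the other 2 have 1 changed base.
LINC02130: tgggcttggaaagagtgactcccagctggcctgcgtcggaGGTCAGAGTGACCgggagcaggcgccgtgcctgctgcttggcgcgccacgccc
TMEM26: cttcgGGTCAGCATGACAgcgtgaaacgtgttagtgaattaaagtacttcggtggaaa
ADAMTSL5: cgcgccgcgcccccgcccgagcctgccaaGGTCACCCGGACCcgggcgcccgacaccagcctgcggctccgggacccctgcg

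The same hormone comparison in the other lines shows where MM134 differs. In a single fit of all 45 libraries 5618 of 21447 genes (26.2%) had a response that differed between MM134 and MM330, 2986 with a higher log2 change in MM134 (13.9%) and 2632 with a lower one (12.3%). Against HCC1428 it was 5680 genes (26.5%), 2608 higher (12.2%) and 3072 lower (14.3%). On library totals without TMM factors these splits moved to 1598 higher and 4743 lower against MM330, and to 1687 higher and 4303 lower against HCC1428. Within the other lines' own fits, 13.7% of all genes tested were called higher and 12.6% lower in MM330, and 29.1% and 25.7% in HCC1428. Of the 15 highest protein-coding genes 12 were tested in MM330, where 10 were called higher, and 15 in HCC1428, where 13 were called higher and 1 lower. Of the 15 lowest, 8 of 13 were called lower in MM330, and 9 of 11 in HCC1428 with 1 called higher. The 15 highest had a median log2 fold change of 4.17 in MM134, and those tested had 2.94 in MM330 and 2.59 in HCC1428. For the 15 lowest the median was -2.48 in MM134, and those tested had -0.62 in MM330 and -0.99 in HCC1428. Both sets were picked as the extremes of MM134, so smaller changes in the other lines follow in part from that choice.

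Growth machinery rose more in MM134 than in MM330. The ribosome biogenesis median was 0.66 in MM134, 0.063 in MM330 and 0.26 in HCC1428, and the difference was called higher in MM134 for 40 of 43 members against MM330 and 32 against HCC1428. Heat shock genes had medians of 0.57, -0.028 and 0.49, with 31 of 33 higher against MM330 and 14 against HCC1428. Proteasome genes had 0.33, -0.077 and 0.22, with 31 of 34 higher against MM330 and 8 against HCC1428. On library totals without TMM factors the counts against HCC1428 were 6 heat shock genes higher with 5 lower, and 3 proteasome genes higher with 2 lower. Replication and mitosis went the other way. DNA replication medians were 0.45 in MM134, 0.82 in MM330 and 2.28 in HCC1428, and 42 of 43 members had a smaller response in MM134 than in HCC1428. Mitosis medians were 0.10, 0.47 and 2.58, with all 40 members lower in MM134 than in HCC1428. FOXO-linked medians were -0.75 in MM134, -0.18 in MM330 and -0.68 in HCC1428. The response was lower in MM134 for 16 and higher for 4 of 24 against MM330, and lower for 7 and higher for 5 against HCC1428.

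Single genes showed the differences. STC2 changed by 3.13 in MM134 and -1.24 in HCC1428, a difference of 4.40 (SE 0.14, adjusted p = 2.82e-26). IGFBP5 changed by 1.36 in MM134, -0.97 in MM330 and -2.28 in HCC1428. ESR1 itself rose in MM134 (0.74), was not called in MM330 (-0.071) and fell in HCC1428 (-0.42), with differences of 0.84 (SE 0.073, adjusted p = 5.47e-12) and 1.19 (SE 0.073, adjusted p = 5.05e-17). FCRLB, among the highest genes of MM134 (4.34), was not called in MM330 (-0.34) or HCC1428 (-0.058). It is not among the flagged line differences, which ask for a called difference and at least 1 CPM in the other line. Its levels in those lines and a test of the difference are not given. Too few counts can therefore not be told from a lack of response. MYC rose in MM134 (2.69) and MM330 (5.46), was not called in HCC1428 (0.018), and its response in MM134 minus that in HCC1428 was 2.69 (SE 0.11, adjusted p = 5.03e-23). DEPP1 fell in MM134 (-5.24) and HCC1428 (-4.42) and was not called in MM330 (-0.62), a difference of -4.62 (SE 0.34, adjusted p = 2.96e-14).

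**Figure D5:**
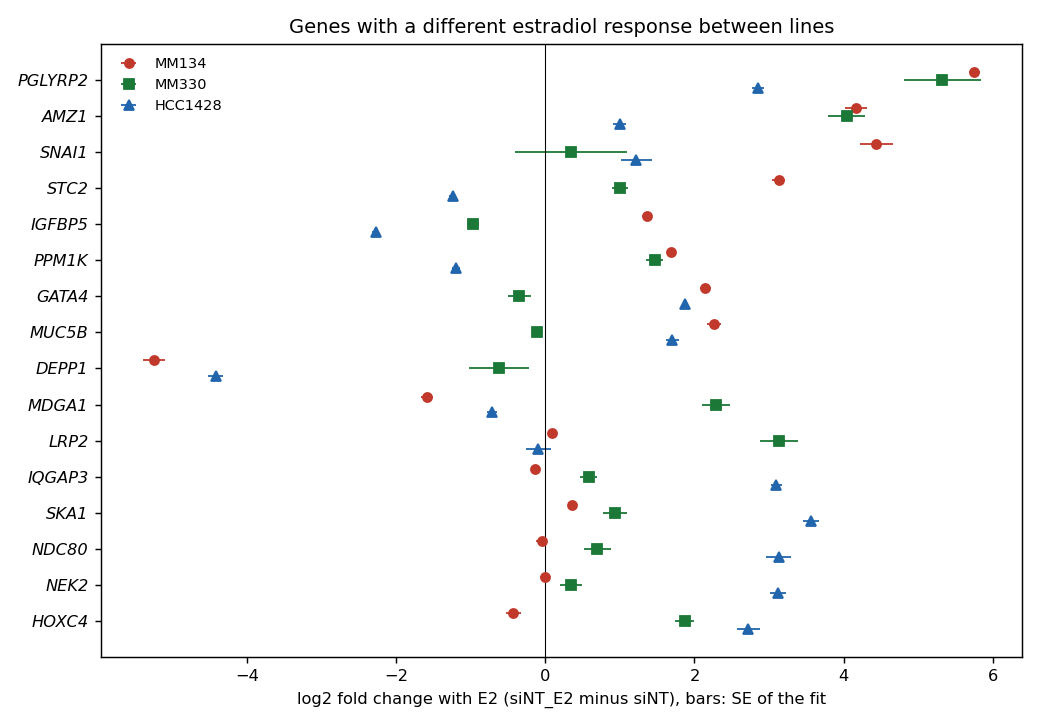
Points give the log2 fold change with E2 (x axis, siNT_E2 minus siNT) of 16 genes in MM134 (red circles), MM330 (green squares) and HCC1428 (blue triangles), with bars for the SE of the fit. STC2, PPM1K and IGFBP5 lie above 0 in MM134 and below 0 in HCC1428, and the cell division genes IQGAP3, SKA1, NDC80 and NEK2 lie between -0.14 and 0.35 in MM134 and between 3.10 and 3.57 in HCC1428 (the sign of NEK2 in MM134 changed with the scaling).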

How the data were processed

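Messenger RNA of 45 libraries was sequenced with a stranded kit and paired reads of 150 bases, per the labels' protocols. The authors deposited 1 table of raw counts per gene symbol. The submitters' processing notes name STAR 2.6.0a, limma and GRCh38, and the counting tool, annotation and strand setting are not given in the sources used here. Of 57353 symbols 16974 had no count. Spreadsheet dates had replaced 27 symbols (0.195% of counts), which were not named.

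Counts of the 15 MM134 libraries were filtered (filterByExpr), scaled by TMM and tested with edgeR 4.0.16 in R 4.3.3 (glmQLFit, glmQLFTest). All 5 groups shared the spread (10 residual degrees of freedom), with Benjamini-Hochberg adjustment and a threshold of 0.05. Differences between lines were interaction terms in a fit of all 45 libraries. Symbols were matched to GENCODE 29. In simulated counts only 200 genes were changed, where 54.4% of genes were called in the data, and 17386 genes passed the filter. There the MM134 fit recovered 73.5% of genes raised 2-fold and 96% of those raised 4-fold, and called 0.0407% of unchanged genes. With so few genes changed, these rates do not carry over to the measured comparison. Alternatives used RLE scaling, no filter, a replicate block, DESeq2 1.42.0, limma 3.58.1 (voom), no TMM factors and leaving out each library. Others kept only the siNT and siNT_E2 libraries, or only libraries with under 0.25% of counts in processed pseudogenes. Members and gene lists were chosen with earlier results of these data known. Genes named were the targeted genes, the 15 highest and 15 lowest protein-coding genes at 10 CPM or more with a count in all 6 libraries and no overlap, up to 5 per list by p, members called against their list, the 6 highest and 6 lowest line differences among called protein-coding genes at 10 CPM or more in MM134 and 1 CPM or more in the other line, the 3 highest and 3 lowest long non-coding genes at 5 CPM or more, and a panel of known targets. CYP1A1, TP53INP1, RBBP8, POLA2, RERG, KRT13, SIAH2, the FOXO factors, MYB, CDH1, ERBB4, SPRY1, SDK2, KCNQ5 and the promoter examples fall outside that rule and were chosen after their values were seen.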

Additional observations from a re-analysis of the deposited data

Results flagged for a closer look

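The genes below were picked out because the E2 response (log2 fold change, siNT_E2 minus siNT, 3 libraries a group) of MM134 differed from that of MM330 or HCC1428 by a test of the difference itself, an interaction term in edgeR's quasi-likelihood fit of all 45 libraries. They are the 6 highest and 6 lowest differences for each line among called protein-coding genes with at least 10 CPM in siNT or siNT_E2 of MM134 and at least 1 CPM in siNT or siNT_E2 of the other line, so their sizes were chosen as extremes. Against MM330, DEPP1, a FOXO-induced gene, changed by -5.24 in MM134 and -0.62 in MM330, a difference of -4.62 (SE 0.34, adjusted p = 2.96e-14). CXCL12, a chemokine, changed by 1.97 in MM134 and rose in MM330, with a fitted difference of -6.18 (SE 0.87, adjusted p = 5.89e-07). ZBTB7C, a zinc finger factor, changed by 1.63 in MM134 and -1.30 in MM330, a difference of 2.96 (SE 0.34, adjusted p = 4.58e-09). GATA4, a GATA transcription factor, changed by 2.14 in MM134 and -0.35 in MM330, a difference of 2.51 (SE 0.14, adjusted p = 2.36e-17). GALNT14, an enzyme of mucin-type glycosylation, changed by -0.43 in MM134 and -2.88 in MM330, a difference of 2.48 (SE 0.36, adjusted p = 6.86e-07). MUC5B, a gel-forming mucin, changed by 2.26 in MM134 and -0.11 in MM330, a difference of 2.40 (SE 0.13, adjusted p = 2.9e-18). IGFBP5, an insulin-like growth factor binding protein, changed by 1.36 in MM134 and -0.97 in MM330, a difference of 2.36 (SE 0.10, adjusted p = 3.84e-21). STK32B, a serine/threonine kinase, changed by -1.12 in MM134 and -3.38 in MM330, a difference of 2.32 (SE 0.42, adjusted p = 4.76e-05). FAXDC2, a fatty acid hydroxylase domain protein, changed by -1.67 in MM134 and 2.30 in MM330, a difference of -3.96 (SE 0.42, adjusted p = 9.86e-10). MDGA1, a cell surface anchor protein, changed by -1.59 in MM134 and 2.29 in MM330, a difference of -3.86 (SE 0.18, adjusted p = 8e-20). PLXNA4, a semaphorin receptor, changed by 0.23 in MM134 and 3.31 in MM330, a difference of -3.05 (SE 0.34, adjusted p = 1.76e-09). LRP2, the endocytic receptor megalin, changed by 0.089 in MM134 and 3.13 in MM330, a difference of -3.04 (SE 0.17, adjusted p = 2.42e-17). CXCL12 had 0, 0 and 0 counts in the siNT libraries of MM330 and 36, 34 and 34 in its siNT_E2 libraries, so the fitted difference depends on the prior count and is no bound. FAXDC2 shares exon bases with CNOT8 on the opposite strand.

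Against HCC1428, PGLYRP2, a peptidoglycan amidase, changed by 5.75 in MM134 and 2.85 in HCC1428, a difference of 2.92 (SE 0.18, adjusted p = 1.24e-16). SNAI1, the Snail repressor, changed by 4.44 in MM134 and 1.22 in HCC1428, a difference of 3.25 (SE 0.43, adjusted p = 8.21e-08). AMZ1, a metallopeptidase, changed by 4.17 in MM134 and 1.00 in HCC1428, a difference of 3.20 (SE 0.19, adjusted p = 1.53e-17). STC2, a secreted glycoprotein, changed by 3.13 in MM134 and -1.24 in HCC1428, a difference of 4.40 (SE 0.14, adjusted p = 2.82e-26). IGFBP5 changed by 1.36 in MM134 and -2.28 in HCC1428, a difference of 3.66 (SE 0.095, adjusted p = 1.32e-28). PPM1K, a mitochondrial phosphatase, changed by 1.68 in MM134 and -1.20 in HCC1428, a difference of 2.90 (SE 0.11, adjusted p = 5.83e-23). IQGAP3, a scaffold of proliferating cells, changed by -0.14 in MM134 and 3.10 in HCC1428, a difference of -3.21 (SE 0.12, adjusted p = 2.51e-23). SKA1, a spindle and kinetochore protein, changed by 0.35 in MM134 and 3.57 in HCC1428, a difference of -3.19 (SE 0.14, adjusted p = 2.7e-21). NDC80, a kinetochore protein, changed by -0.047 in MM134 and 3.13 in HCC1428, a difference of -3.15 (SE 0.23, adjusted p = 1.43e-14). HOXC4, a homeobox factor, changed by -0.43 in MM134 and 2.72 in HCC1428, a difference of -3.13 (SE 0.19, adjusted p = 7.15e-17). NEK2, a centrosome kinase, changed by -0.0080 in MM134 and 3.12 in HCC1428, a difference of -3.11 (SE 0.18, adjusted p = 1.51e-17). MND1, a recombination factor, changed by 0.24 in MM134 and 3.37 in HCC1428, a difference of -3.10 (SE 0.24, adjusted p = 4.23e-14). HOXC4 shares exons with HOXC6 on the same strand, so its reads may be split between the 2 genes. Neither LRP2 nor NEK2 was called in MM134 in the main fit. LRP2 was called higher there in 6 of 14 alternatives, and its sign turned in 1, library totals without TMM factors. The sign of NEK2 turned in 5 of 14, and none of them called it.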

How the results depend on the processing

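The count of 9648 genes called in MM134 ranged from 9370 to 10029 over 8 other settings and from 8837 to 9228 with one library left out. The 2-fold counts (539 higher, 1054 lower) ranged from 460 to 620 and from 933 to 1334 over those settings, and from 504 to 566 and 979 to 1077 with one library left out. The line differences, 5618 genes against MM330 and 5680 against HCC1428, ranged over the settings from 4853 to 6341 and from 4516 to 6176. With one library left out they ranged from 5042 to 5354 and from 5189 to 5404. The lowest counts over the settings, 4853 and 4516, came from keeping libraries with under 0.25% of counts in processed pseudogenes. Above that limit were replicates 1 and 2 of HCC1428_siNT, replicate 2 of HCC1428_siNT_E2, replicate 2 of MM330_siNT and replicate 1 of MM330_siNT_E2. The siNT and siNT_E2 libraries of MM134 held at most 0.158%. Adding the replicate block gave 9605 called genes. Same-numbered siNT and siNT_E2 libraries had correlations of deviations from their group means of 0.034, 0.038 and 0.0085. These values do not tell whether same-numbered libraries were made together. Of 384 named genes called in MM134, 346 kept their call and direction under every alternative. Library totals without TMM factors, chosen after seeing the data, moved the split between directions: against MM330 1598 genes were called higher and 4743 lower, and against HCC1428 1687 higher. Under it the signs turned for MDC1 (-0.11, adjusted p = 0.0436 in edgeR), LRP2 (-0.020), NR1H2 (-0.0033), VIM (-0.018) and CSNK1E (-0.022), and for the medians of receptor coregulators (-0.065), mitosis (-0.014), fatty acid (-0.10), lysosome (-0.042), interferon (-0.072) and chromatin genes (-0.081). MDC1, not called, also turned without siNT_E2 replicate 3 (-0.0062) and without siNT replicate 1 (-0.0077), in a range from -0.0077 to 0.016 with one library left out. NEK2, not called, turned under RLE scaling (0.0047), DESeq2 (0.0038) and limma-voom (0.0036), without siNT_E2 replicate 3 (0.0084) and without siNT replicate 1 (0.072), in a range from -0.082 to 0.072. The cause was not tested. Depth limits genes under 1 CPM, where 5.41% were called higher and 15.2% lower.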
